A study of Mus musculus with 117 samples.

Results

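Hepatocytes of the inbred mouse strains CAST/EiJ and PWK/PhJ shared 1 chromatin state, where 7 other strains shared a different one, in 115177 of 12313718 autosomal bins of 200 bp (0.935%). These member bins were found by comparing, at every bin of chromosomes 1 to 19, the state numbers of the deposited segmentations: both strains of the pair had to carry the same state, and 129S1/SvImJ, A/J, C57BL/6J, DBA/2J, NOD/ShiLtJ, NZO/HlLtJ and WSB/EiJ all had to carry 1 other state. All animals were 12-week-old females, untreated as far as the labels say, and the tissue was liver with hepatocyte as cell type. Per the labels, each strain has chromatin immunoprecipitation sequencing of H3K4me1, H3K4me3, H3K27ac and H3K27me3 in 3 mice and 1 input library, 13 libraries a strain and 117 in all. Each strain is represented by 1 segmentation that combines its libraries, so a strain is 1 value and the spread between mice of a strain is unknown. Whether reads were mapped to mm10, the assembly of C57BL/6J, or to genomes of the strains is not given in the sources used here. Mapping to mm10 could shift the states of CAST/EiJ and PWK/PhJ together where their sequence diverges from it, and the part of this in the member bins was not tested.

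CAST/EiJ derives from wild mice of the castaneus subspecies and PWK/PhJ from wild mice of the musculus subspecies, while WSB/EiJ and most of the genome of the classical laboratory strains derive from the domesticus subspecies. The histone marks surveyed report on how a stretch of DNA is used. H3K4me3 marks the promoters of active genes, H3K4me1 marks enhancers, H3K27ac marks enhancers and promoters in use, and H3K27me3 is laid down by Polycomb repressive complexes over silent genes, often those of development and of other tissues. A chromatin state segmentation summarises which marks occur together and gives each stretch a state number. In hepatocytes the genes of secreted plasma proteins, bile acid synthesis and drug metabolism carry active marks.

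The mark content of the states is not given in the sources used here, so each state is described by where it lay. State 14 was the background, with 76.6% ± 1.47 of autosomal bins (SD, n = 9 strains). State 13 covered 51.9% ± 3.40 of the bins within 1 kb of the starts of 51 regulators of embryonic development, and 0 of those of 24 secreted hepatocyte proteins. State 1 covered 50.7% ± 2.11 and state 3 covered 38.8% ± 1.94 of the start bins of the secreted proteins. Only 15.6% ± 1.34 of state 1 bins lay within 1 kb of a start, and state 1 also covered 43.4% ± 3.23 of the start bins of ubiquitously expressed genes. State 3 was the state most confined to starts, with 58.1% ± 3.05 of its bins within 1 kb of one. States 2, 4 and 6 had 66.9%, 56.1% and 69.2% of their bins in gene bodies away from starts, on average over the strains. The hepatocyte label was checked against markers: starts of 22 Kupffer cell and leukocyte genes lay in state 14 for 73.4% ± 5.82 of their bins, while those of 20 endothelial genes were mixed, with 26.1% ± 5.30 in state 14, 13.4% ± 2.81 in state 4, 9.22% ± 1.17 in state 1 and 8.92% ± 5.38 in state 3. Starts of 24 stellate and bile duct genes lay in state 13 for 42.5% ± 5.38, in state 14 for 19.1% ± 6.16, in state 1 for 9.08% on average and in state 3 for 5.05% on average. States 1 and 3 were thus also found at starts of endothelial, stellate and bile duct genes, and the part of such cells in them was not tested.

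Start windows that lay wholly in member bins are shown for 4 genes, 2 with exchanges between states 13 or 14 and states 1 or 2 and 2 with exchanges of 13 and 14, so that the DNA can be read. The window runs from 250 bases before to 50 bases after a start, on the strand of the gene, from RefSeq on GRCm38.p6, the assembly that mm10 denotes. Mcf2l encodes a guanine nucleotide exchange factor for small GTPases. Its window at chr8:12926026-12926325, plus strand, is 1 of 6 start windows of the gene, at a start 52470 bp inside it, and carried state 13 in the 7 strains and state 2 in CAST/EiJ and PWK/PhJ. Camk1d encodes a calcium/calmodulin-dependent protein kinase. Its window at chr2:5675997-5676296, minus strand, is 1 of 2, at a start 38814 bp inside the gene, and carried state 1 in the 7 and state 14 in the pair. The windows of Tprg at chr16:25286567-25286866 and Nutm2 at chr13:50467057-50467356, both on the plus strand, carried state 13 in the 7 and state 14 in the pair. Capitals mark matches to 6 motifs, searched on both strands. The letters GGGCGG stand for SP1/KLF proteins. The factor NF-Y is known for CCAAT. FOXA proteins were searched as TGTTTAC, the E-box as CACGTG, and the TATA box by the letters TATAAA. The last motif, AGGTCA, is bound by nuclear receptors. No matches overlap in these windows.
Mcf2l: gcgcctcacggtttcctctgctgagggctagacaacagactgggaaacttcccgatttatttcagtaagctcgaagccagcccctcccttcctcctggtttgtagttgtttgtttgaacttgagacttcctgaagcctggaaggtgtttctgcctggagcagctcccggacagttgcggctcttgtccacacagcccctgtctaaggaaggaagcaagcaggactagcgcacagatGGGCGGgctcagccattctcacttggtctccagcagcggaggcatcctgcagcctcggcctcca
Camk1d: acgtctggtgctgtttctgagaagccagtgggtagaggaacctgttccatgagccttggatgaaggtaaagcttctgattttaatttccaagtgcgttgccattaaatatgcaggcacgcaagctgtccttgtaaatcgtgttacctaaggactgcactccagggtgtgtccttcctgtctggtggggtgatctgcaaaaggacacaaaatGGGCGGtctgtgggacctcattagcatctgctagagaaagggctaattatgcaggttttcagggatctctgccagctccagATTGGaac
Tprg: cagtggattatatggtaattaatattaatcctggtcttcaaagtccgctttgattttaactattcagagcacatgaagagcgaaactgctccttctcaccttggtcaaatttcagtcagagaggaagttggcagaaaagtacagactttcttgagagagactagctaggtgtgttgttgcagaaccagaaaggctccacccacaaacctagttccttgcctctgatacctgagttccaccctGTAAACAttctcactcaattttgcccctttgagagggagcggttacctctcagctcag
Nutm2: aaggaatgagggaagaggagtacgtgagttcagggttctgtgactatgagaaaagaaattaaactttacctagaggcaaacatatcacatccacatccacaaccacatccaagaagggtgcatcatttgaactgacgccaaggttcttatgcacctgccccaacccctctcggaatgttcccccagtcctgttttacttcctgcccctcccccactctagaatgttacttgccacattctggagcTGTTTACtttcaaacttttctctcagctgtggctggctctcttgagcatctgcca

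The Mcf2l and Camk1d windows hold the SP1/KLF letters, and the Camk1d window also holds those of NF-Y on the opposite strand. The Nutm2 window holds the FOXA letters as printed, and the Tprg window holds them on the opposite strand. Among all 20063 start windows of protein-coding genes, 47.0% held the SP1/KLF motif, 38.1% held that of NF-Y and 3.04% that of FOXA. GC content was 56.7% in the Mcf2l window, 48.7% for Camk1d, 44.0% for Tprg and 47.3% for Nutm2. The 79 start windows with a bin that exchanged states 13 and 14 had a mean GC content of 45.2% ± 9.52 (SD over windows), against 56.5% ± 11.6 over all windows. The SP1/KLF motif was found in 10.1% of these 79, and the TATA box in 27.8% against 12.7% of all windows. These are matches of letters in a window and show no binding.

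The count of member bins was set beside other groupings by the same rule. A/J and NOD/ShiLtJ against the remaining 7 strains gave 42806 bins (0.348%). CAST/EiJ alone against the other 8 gave 289622 bins and PWK/PhJ alone gave 561176, so each strain of the pair differed by itself at more bins than jointly. In the 8465894 bins where the 7 strains shared a state, CAST/EiJ differed in 4.98% and PWK/PhJ in 8.19%. Of the bins where CAST/EiJ differed, PWK/PhJ differed too in 31.3%. Where CAST/EiJ did not differ, PWK/PhJ differed in 6.98%. When both differed they had the same state in 87.2% of bins. For A/J and NOD/ShiLtJ the same 3 shares were 21.7%, 2.42% and 92.9%.

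Most exchanges were between states 13 and 14. In 43694 bins (37.9% of members) the 7 strains had state 14 and the pair state 13, and in 41146 bins (35.7%) it was the other way round, so both directions were almost equal in number. With edges shifted by 1 bin dropped, the counts were 20603 from 14 to 13 and 24256 from 13 to 14, so the larger direction depends on how edges are treated. In the bins found by the same rule for A/J and NOD/ShiLtJ, 24447 went from 14 to 13 and 1782 from 13 to 14. Exchanges of state 14 with states 1 to 12 were less balanced. State 14 in the 7 and 1 of states 1 to 12 in the pair occurred in 12604 bins, against 8076 bins the other way, a ratio of 1.56. The same ratio was 5.88 for A/J and NOD/ShiLtJ, 10.5 for CAST/EiJ alone and 1.36 for PWK/PhJ alone. For CAST/EiJ, PWK/PhJ and WSB/EiJ against the other 6 it was 0.755. An excess in this direction was thus not particular to the pair.

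**Figure D1:**
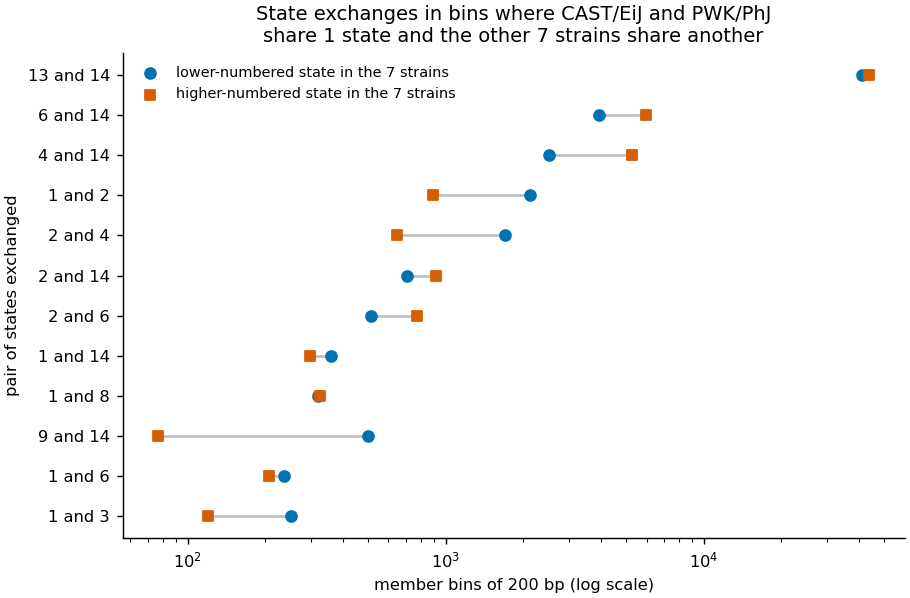
Number of member bins of 200 bp (log axis) for the 12 pairs of states exchanged most often. Circles count bins where the 7 strains carried the lower-numbered state and squares bins where they carried the higher-numbered one; 13 and 14 were exchanged in nearly equal numbers, while 9 and 14 were not (499 against 77).

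Several state pairs were exchanged mainly in 1 direction. State 14 in the 7 with state 4 in the pair was found in 5255 bins, and the reverse in 2510. State 14 with state 6 in the pair was found in 5992 bins, against 3943. State 1 was state 2 in the pair in 2118 bins, of which 1.75% lay within 1 kb of a start, against 890 for the reverse. State 2 was state 4 in the pair in 1705 bins, against 649. State 9 was state 14 in the pair in 499 bins, against 77. With edges shifted by 1 bin dropped, 998 bins went from 14 to 6 and 677 back, and 3089 went from 14 to 4 and 1558 back, so the exchange with state 4 was then the more frequent one. From 1 to 2 there were then 498 bins against 159 the other way, and from 2 to 4 there were 400. In the exchanges of 14 with 6, 14 with 4 and 1 with 2, the larger direction stayed the same. With 1 segmentation a strain these counts have no test.

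Member bins joined into 40963 regions of 1 exchange each, with a median length of 400 bp. A single bin made up 17496 of them (42.7%), and 84 were 5 kb or longer. Regions that exchanged 13 and 14 were the long ones, with 53 of these 84 going from 13 to 14 and 29 from 14 to 13. The longest region of 14 to 6 was 2400 bp, in Kif21a, a kinesin gene, and 72.9% of those regions were single bins. At 13.3% of the region edges all 9 strains carried the same state in the next bin. Both strains of the pair kept their state in the next bin at 41.1% of edges, and all 7 kept theirs at 51.4%.

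The longest region, chr8:12850601-12871000, lay at the end of Atp11a, which encodes a phospholipid flippase of the plasma membrane. It held state 13 in the 7 strains and state 14 in the pair over 20400 bp. A further region of this exchange, chr8:12677801-12690200, lay 4947 bp from Tubgcp3. The second longest, chr7:48667001-48684600, went from 14 to 13 and lay 23200 bp from Mrgprb3, a receptor gene of sensory neurons in a family of close copies. Others were chr18:58191401-58208000 in Fbn2, the gene of fibrillin-2 in extracellular microfibrils, chr17:58895201-58907400 in Pdzph1 (14 to 13) and chr12:40085801-40096800 in Scin, which encodes an actin-severing protein. The 6 longest regions without state 14, chosen after their values were seen, included 2600 bp in Mgll and 2200 bp in Cmah, both from state 4 to state 2. Mgll encodes the lipase that cleaves monoacylglycerols.

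Member bins were clustered along the chromosomes. Of 2454 windows of 1 Mb, 61 had none, the median was 35, and the 245 richest windows held 31.3% of all. The richest, chr11:111000001-112000000 with the potassium channel genes Kcnj16 and Kcnj2, had 764 member bins, of which 737 went from 13 to 14. Its neighbour chr11:110000001-111000000 had 647. The window chr8:12000001-13000000, with Sox1, Atp11a and the first part of Mcf2l, had 501, of which 442 went from 13 to 14 and 0 from 14 to 13. The window chr8:87000001-88000000, with Cbln1 and Zfp423, had 488, of which 486 went from 13 to 14. Across the autosomes the share of member bins ran from 0.690% on chromosome 3 to 1.37% on chromosome 11, with a mean of 0.954% ± 0.176 (SD, n = 19 chromosomes).

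Exchanges of 13 and 14 lay mostly outside genes, and the other exchanges mostly inside them. The states themselves lay this way in the strains. States 13 and 14 had 64.6% and 63.1% of their bins outside genes, on average over the strains. In gene bodies lay 57.2%, 66.9%, 56.1% and 69.2% of the bins of states 1, 2, 4 and 6. Within protein-coding genes, away from starts, lay 29.3% ± 6.20 of the 13 and 14 exchanges and 55.5% ± 4.99 of the others (mean and SD over 19 autosomes), against 39.0% ± 3.62 of all autosomal bins. Within 1 kb of a start lay 0.732% ± 0.357 of the 13 and 14 exchanges and 2.19% ± 0.989 of the others, against 1.55% ± 0.615 of all bins. Bins that varied between any strains were within 1 kb of a start in 1.94% ± 0.660 of cases. For member bins as a whole this share was 1.12% ± 0.429, and the ranges of mean and SD overlapped with those of all bins. Both are spreads over the same 19 autosomes, and their overlap takes no account of this pairing. The difference was not tested. By exchange, 40.6% of the 251 bins that went from state 1 to state 3 were within 1 kb of a start, while 0.284% of those from 14 to 6 were. Of all bins of state 3, 58.1% lay within 1 kb of a start, and of state 1 it was 15.6%.

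**Figure D2:**
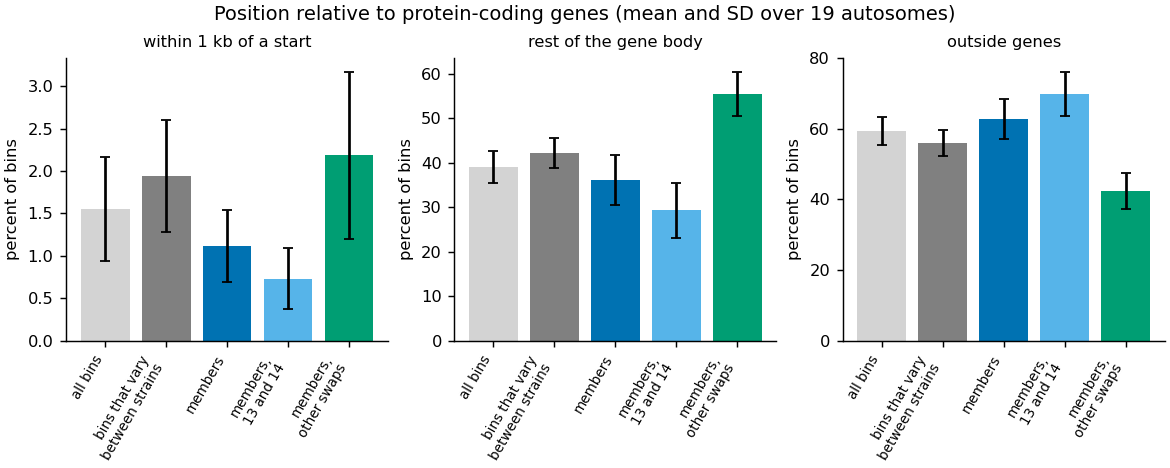
Percent of bins within 1 kb of a protein-coding start, in the rest of the gene body and outside genes (bars: mean over 19 autosomes; error bars: SD). Member bins other than exchanges of 13 and 14 lay in gene bodies more often than all bins (55.5% against 39.0%), and exchanges of 13 and 14 less often (29.3%). By state, 33.6% of state 13 bins and 36.4% of state 14 bins lay in gene bodies, on average over the strains.

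Of 20665 protein-coding genes, 6261 had at least 1 member bin within the gene or 1 kb of it (30.3%), and 3245 had at least 3 (15.7%). Near the start, 1029 genes had a member bin (4.98%). Starts are known here for 16457 of the genes, and both gene ends were used for the rest. Only 13 genes had a start bin that was in states 1 to 3 in the pair and 13 or 14 in the 7 (0.0629%), and 11 had the reverse (0.0532%). The rule used these states, so such counts describe the members and test nothing.

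The 13 genes with states 1 to 3 in the pair were Mcf2l, Gnrh1, Nrap, Pggt1b, Galntl5, Gm39701, Slc15a2, Cyp4a12b, Osbpl6, Pakap, Plekhs1, Prom1 and Zfp239. The remaining bins of each gene, which the rule did not take, were then counted in every strain. In 11 of the 13, both CAST/EiJ and PWK/PhJ had more bins of states 1 to 3 outside member bins than any of the 7, which holds for 2.53% of all protein-coding genes. These bins neighbour the member bins that chose the genes, so nothing is read from that share. Slc15a2, a peptide transporter gene, and Prom1 were the exceptions.

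Mcf2l, at chr8:12873806-13020502, holds the first start window printed above. CAST/EiJ had 130 bins of states 1 to 3 and PWK/PhJ had 96, of 744 bins over the gene and 1 kb around it. The 7 strains had 10 to 26, with a median of 20. State 13 covered 0 bins in each strain of the pair and 415 to 464 in the 7, with a median of 436. The groups did not overlap in either measure, but both include the member bins that chose the gene, so this is no test. Of its 159 member bins, 118 went from 13 to 14.

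Genes of other tissues appeared among the 13. Nrap, which encodes an anchoring protein of striated muscle, had 56 bins of states 1 to 3 in CAST/EiJ and 48 in PWK/PhJ, against 12 to 32 (median 18) in the 7. Its state 4 covered 81 and 83 bins, against 3 to 17. Gnrh1, the gene of gonadotropin-releasing hormone, had 6 bins of states 1 to 3 in CAST/EiJ, 12 in PWK/PhJ and 0 in each of the 7. Galntl5, of the family of enzymes that start mucin-type sugar chains, had 23 and 35 against 0 to 5. Osbpl6, an oxysterol-binding protein gene, had 14 and 37 against 0 in each of the 7. Plekhs1 had 24 and 14 against 6 in DBA/2J and 0 in the other 6. These counts include the member bins that chose the genes, so the order of the strains is no test. Plekhs1 and Nrap lie near each other on chromosome 19, at chr19:56457275-56486729 and chr19:56320037-56390062.

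The 11 genes with states 13 or 14 in the pair included Camk1d, Agxt2, Adgrf1, Erc2, Grin2a, Dgcr6, Gm13777, Gm44180, Irf5 and Trim12c. Outside member bins, 7 of the 11 had fewer bins of states 1 to 3 in both CAST/EiJ and PWK/PhJ than in any of the 7, which holds for 2.97% of all genes. Again these bins adjoin those of the rule. Dgcr6, Gm13777, Gm44180 and Trim12c rest on 1 member bin each.

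Camk1d, at chr2:5293457-5714860, had 21 bins of states 1 to 3 in CAST/EiJ and 18 in PWK/PhJ, of 2118. The 7 strains had 143 to 315, with a median of 241, so the lowest of them, WSB/EiJ, was far above the pair. State 6 followed the same order, with 53 and 36 bins in the pair and 86 to 714 in the 7. Around its starts, 0 of 22 bins were in state 1 in either strain of the pair, against 10 to 19 in the 7. Of these 22 bins, 7 were among those that chose the gene. Adgrf1, an adhesion receptor gene, had 1 bin of states 1 to 3 in CAST/EiJ and 0 in PWK/PhJ, against 13 to 38 (median 23). Irf5, a transcription factor of interferon responses, had 23 and 34 against 54 to 70 (median 68). Its state 1 covered 3 and 15 bins, against 43 to 57. Agxt2, an aminotransferase of mitochondria, overlapped over the whole gene, with 105 and 106 bins against 96 to 135. The counts of all these genes include the member bins that chose them, so the order of the strains is no test.

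**Figure D3:**
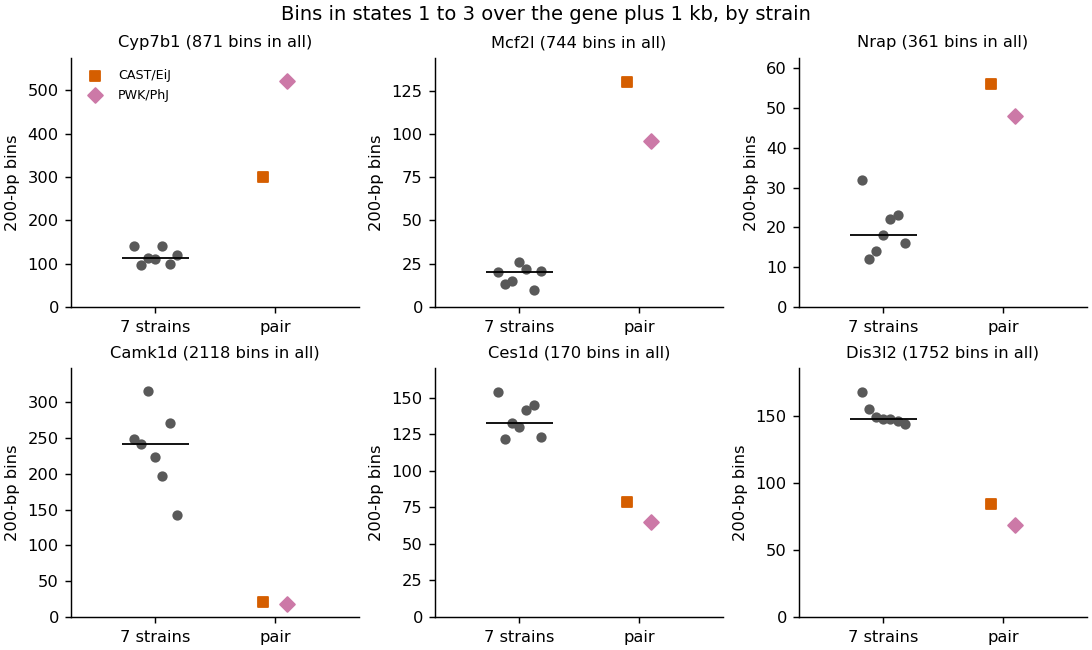
Bins of 200 bp in states 1 to 3 over 6 genes plus 1 kb on each side; grey points are the 7 strains with their median as a line, the square is CAST/EiJ and the diamond PWK/PhJ. The pair lies above all 7 at Cyp7b1, Mcf2l and Nrap and below all 7 at Camk1d, Ces1d and Dis3l2. The counts include member bins, which the rule chose by their states.

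In each of the 20 genes with the most member bins, the commonest exchange was between states 13 and 14. In these 20 genes, both strains of the pair had more state 13 than any of the 7 in 8, less in 8, and overlapped in 4. Of the 8 higher ones, Gm37013, Gm38666 and Gm38667, are overlapping models of the protocadherin cluster that share their bins. The counts over the 20 genes include the member bins that chose them, so they restate the rule in part. Outside member bins they were 5, 7 and 8. Over all genes, 1.16% had more state 13 in both strains of the pair outside member bins and 3.75% had less. Bins outside members adjoin those that chose the genes, so nothing is read from these shares. The counts of state 13 given next for single genes include the member bins that chose them, so the order of the strains is no test.

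Erc2, a gene of the presynaptic release site, had 486 bins of state 13 in CAST/EiJ and 752 in PWK/PhJ, against 2 in A/J and 0 in the other 6. Erc2 also had 38 and 24 bins of states 1 to 3, against 79 to 132 in the 7, so the strains that carried state 13 there carried less of states 1 to 3. Nkain2 had 920 and 765 bins of state 13 against 117 to 485. Dpp10 had 869 and 1524 against 159 to 514. PWK/PhJ was the higher of the pair at Erc2 and Dpp10 and the lower at Nkain2.

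The reverse exchange covered other genes. Fbn2 had 63 bins of state 13 in CAST/EiJ and 14 in PWK/PhJ, against 406 to 707 (median 637) in the 7. Atp11a had 67 and 12 against 254 to 510 (median 356). Scin had 22 and 64 against 213 to 276. Asic2, an acid-sensing ion channel gene, had 2711 and 1533 against 3272 to 4290, so CAST/EiJ carried more of it than PWK/PhJ. Cadps, a gene of vesicle release, had 660 and 896 against 1293 to 1797. The groups overlapped in state 13 at Magi2, Cntnap2, Kcnip4 and Nrxn3, where member bins were 1.41% to 2.98% of the gene.

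**Figure D4:**
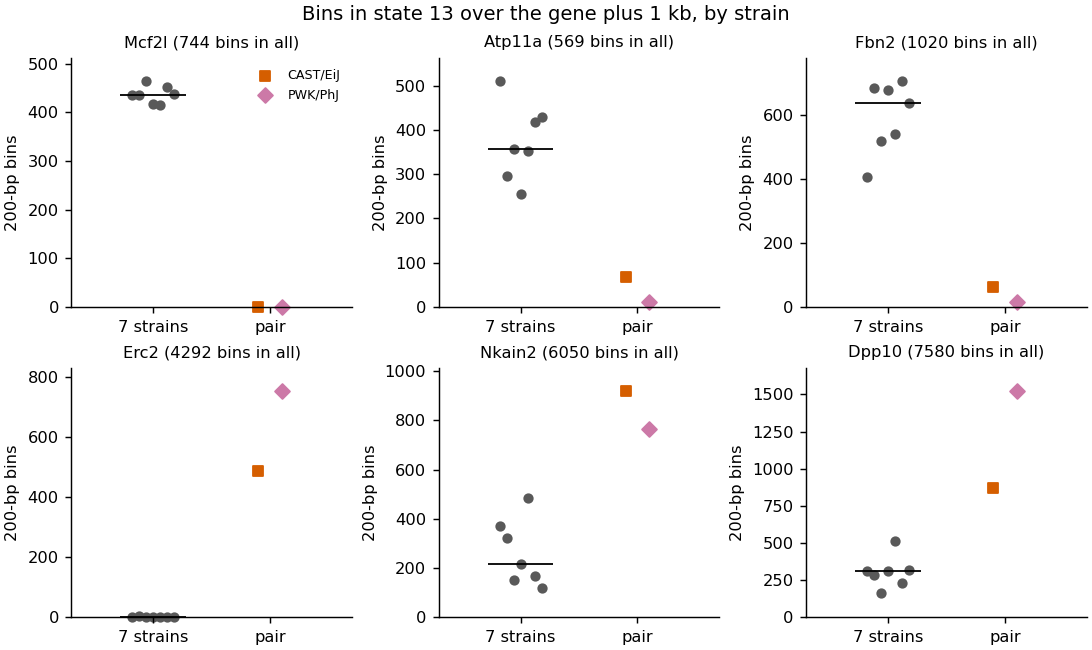
Bins of 200 bp in state 13 over 6 genes plus 1 kb on each side, by strain, with the 7 strains in grey, their median as a line, CAST/EiJ as a square and PWK/PhJ as a diamond. The pair is below all 7 at Mcf2l, Atp11a and Fbn2 and above all 7 at Erc2, Nkain2 and Dpp10. The counts include member bins, which the rule chose by these states.

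The start windows most filled with member bins all exchanged 13 and 14. In Nutm2 and Tprg every start bin was a member, and in Krtap1-3 and Mrgprb3, whose start is not given here, every bin around both ends. Krtap1-3, Krt39, Krtap3-2, Krt32 and Krtap3-3 are keratin and keratin-associated genes of hair, lie together on chromosome 11, and carried state 13 in the 7 and state 14 in the pair. Krt39 had 0 bins of state 13 in both strains of the pair and 29 to 53 in the 7, of 53 bins. Krtap1-3 had 0 against 15 of 15 bins in each of the 7. Mrgprb3 ran the other way, with 16 of 16 bins of state 13 in each strain of the pair and 0 in the 7. Nutm2 had 0 in the pair and 44 to 51 of 51 in the 7. All bins of Krtap1-3 and Mrgprb3 were member bins, as were 44 of the 51 of Nutm2 and 25 of the 53 of Krt39. These splits between the groups thus restate the rule and test nothing. Krtap, Mrgprb and Nutm2 genes have close copies, and reads could be shared among them in mapping.

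For the 72 list genes with at least 3 member bins, states 1 to 3 mostly overlapped between the groups: the pair was above all 7 in 5, below in 9, and overlapped in 58. Outside member bins it was above in 5 and below in 8, and over all protein-coding genes this held for 2.53% and 2.97%. Bins outside members adjoin those that chose the genes, so nothing is read from these shares. Genes that separated the groups are thus the minority of those lists.

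Among genes of the liver lists, Cyp7b1 had the most member bins. Cyp7b1, the oxysterol hydroxylase of the alternative route of bile acid synthesis at chr3:18071944-18243890, had 124 member bins of 871, of which 63 went from state 14 to state 6. States 1 to 3 covered 300 of its bins in CAST/EiJ and 521 in PWK/PhJ, against 96 to 141 (median 113) in the 7. Outside member bins the values were 255 and 476 against 88 to 133. In both counts the pair lay above the 7, and PWK/PhJ above CAST/EiJ. The first count includes the member bins that chose the gene. The bins of the other adjoin them, so nothing is read from this order. State 6 covered 203 and 163 bins against 36 to 84, a count that also includes member bins.

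Of 10 carboxylesterase (Ces) genes in the conjugation and export list, 5 had member bins. Over the whole list it was 20 of 49 genes, and over all protein-coding genes 30.3%. Ces1d encodes an enzyme that hydrolyses esters and stored triglyceride. Of its 170 bins, 79 in CAST/EiJ and 65 in PWK/PhJ were in states 1 to 3, against 122 to 154 (median 133). State 4 covered 64 and 63 of its bins, against 0 to 7. Its neighbours Ces1e, with 40 and 39 bins of states 1 to 3 against 56 to 74, and Ces1f, with 100 and 102 against 116 to 128, were ordered the same way. Ces2c, with 12 and 13 against 12 to 21, overlapped, and Ces3a had 2 member bins. The Ces1 genes lie in tandem and are close copies, so the values of neighbours may share reads. In Cyp2c38, of a further family of close copies, states 1 to 3 covered 14 and 8 bins against 22 to 33. In Cyp2a4 7 bins went from state 1 to state 3. The counts of states in the Ces and Cyp2c38 genes include member bins, among them 23 of Ces1d from state 2 to state 4. The order of the strains is thus no test.

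Lipid genes had few member bins each. Cd36, a fatty acid transporter, had 153 and 187 bins of states 1 to 3 against 41 to 138 (median 130), with 3 member bins. Pparg, a nuclear receptor of fat storage, had 77 and 66 against 93 to 162 (median 113), with 8. Elovl6, a fatty acid elongase, had 13 member bins, of which 10 went from state 2 to state 4, and its states 2 and 4 overlapped between the groups. Pnpla3 had 6 member bins, all from 14 to 4, and 15 and 75 bins of state 4 against 0 to 13. Mgll had 217 and 203 bins of state 2, against 149 to 170. The counts in these genes include their member bins, such as the 6 of Pnpla3, so the order of the strains is no test.

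A further 22 genes lay at the longest regions, of all exchanges or of 1 of the commonest. Of them, Mgll, Cmah, Pdia5, Prlr and Klf14 came from regions added after values were seen. In the pair, states 1 to 3 were above all 7 in 3 genes, below in 3, and overlapped in 16. Outside member bins these numbers were the same, and over all protein-coding genes 2.53% lay above and 2.97% below. Bins outside members can adjoin the regions that chose the genes, so nothing is read from these shares. The counts given next for single genes include any member bins, so the order of the strains is no test. Dis3l2, an RNA-degrading exonuclease gene, had 84 and 69 bins of states 1 to 3 against 144 to 168, and 38 and 11 bins of state 4 against 79 to 140. Cdkl1, a kinase gene, had 66 and 64 against 25 to 43, and 90 and 93 bins of state 4 against 10 to 22. Kif21a had 148 and 118 against 84 to 114. Hmbox1 (76 and 91 against 65 to 90) and Arhgap42 (368 and 391 against 329 to 565) overlapped. Pdia5, with 2200 bp from state 1 to state 2, had 150 and 111 against 144 to 170 and overlapped too. In Prlr, the prolactin receptor gene, 15 bins went from state 1 to state 2, and its state 2 overlapped, with 320 and 490 bins against 165 to 409.

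Gene lists were read by the share of their bins that were members, since a longer gene has more chances of a member bin. Over all protein-coding genes that share was 0.853%, and 9 of 21 lists lay above it. Cytochrome P450 genes had 2.73%, of which Cyp7b1 held 124 of 220 bins counted by gene. Major urinary proteins had 2.24%, which is 22 of 983 bins, of which Mup20 held 10. Developmental regulators followed with 92 of 6143 bins, conjugation and export with 1.43%, protocadherins, whose models overlap, with 1.15% and secreted proteins with 1.11%. Slc transporters (0.977%), olfactory and vomeronasal receptors (0.971%) and Kupffer cell and leukocyte genes (0.943%) were nearer to all genes. Lower shares were found for glucose and amino acid metabolism (0.728%), stellate and bile duct genes (0.652%), interferon-induced genes (0.627%), zinc finger protein genes (0.589%), lipid and sterol metabolism (0.564%) and hepatocyte transcription factors (0.546%). Endothelial genes had 0.498%, the circadian clock 0.464%, the major histocompatibility complex 0.399% and imprinted genes 0.251%. Ubiquitously expressed genes and Serpina3 protease inhibitors had 0 member bins.

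By the share of genes with a member bin (30.3% over all), 12 of the 21 lists lay above, of which 6 did not by the share of bins. These include glucose and amino acid metabolism with 22 of 36 genes, lipid and sterol metabolism with 26 of 46, endothelial genes with 10 of 20 and the circadian clock with 9 of 19. The other way round, developmental regulators, with 12 of 51 genes, olfactory and vomeronasal receptors, with 121 of 1458, and Kupffer cell and leukocyte genes, with 4 of 22, lay above by bins and below by genes. Pecam1, an endothelial adhesion gene, had 18 and 20 bins of states 1 to 3 against 23 to 36, and Adgre1, the F4/80 gene of macrophages, had 417 and 166 bins of state 13 against 288 to 459. The counts of Pecam1 and Adgre1 include member bins, so the order of the strains is no test. The part of other cell types in the member bins was not tested.

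**Figure D5:**
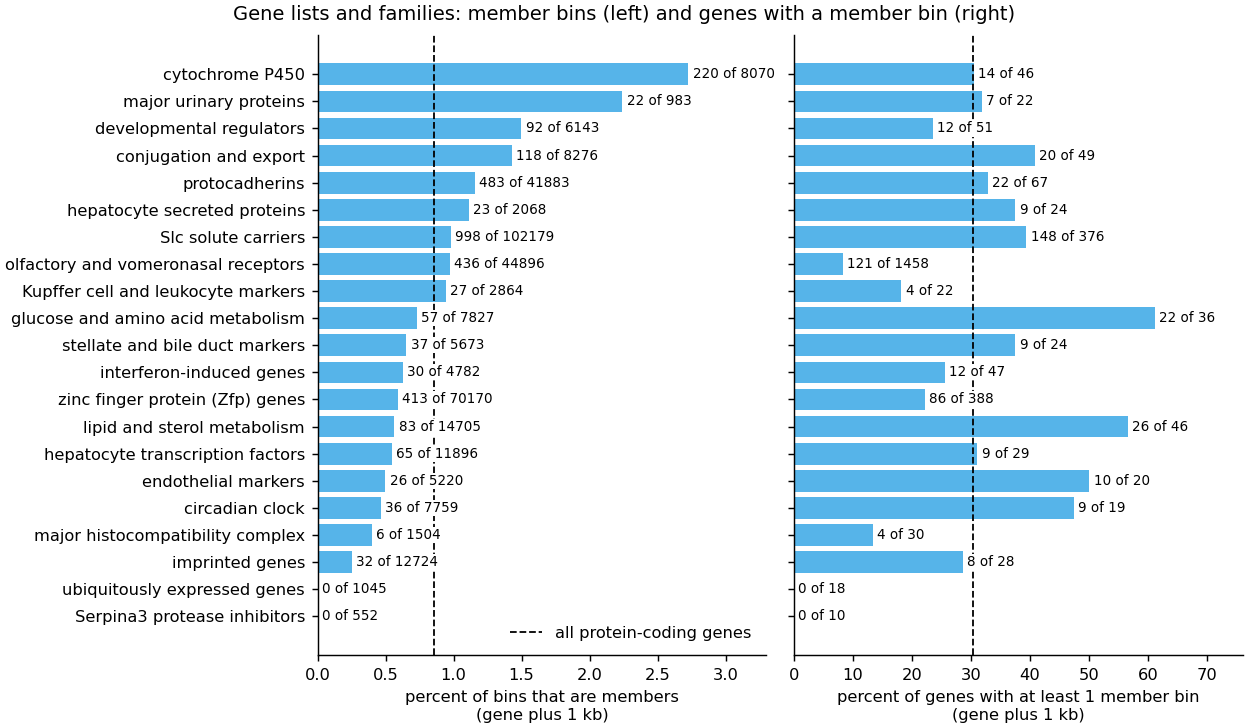
Percent of the bins of each list or family that are members (left) and percent of its genes with at least 1 member bin (right), both over the gene and 1 kb on each side, with the counts at the bars. The dashed lines are all protein-coding genes, 0.853% of bins and 30.3% of genes; the order of the lists differs between the panels.

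Exchanges are given here as counts within lists, some of them of few bins. In the secreted proteins, 14 of 23 member bins went from state 1 to state 2 and 0 the other way, among them 6 bins in F2, the prothrombin gene, and 3 in C3, a complement gene. The same exchange made up 22 of 57 member bins in glucose and amino acid metabolism, with 7 in Igf1, and 28 of 83 in lipid and sterol metabolism, with 6 in Abca1, the cholesterol exporter gene. Over all protein-coding genes it was 3.41% of member bins, and the reverse 1.15%. That baseline is unlike, since 58.9% of member bins over all genes exchanged 13 and 14. State 13 covered 0 of the start bins of the secreted proteins and state 1 covered 50.7%. The shares in a list thus depend on which states its genes carry. Hepatocyte transcription factors had 5 of 65 bins from 1 to 2 and 16 from 2 to 1, cytochrome P450 genes 9 and 8 of 194, and circadian clock genes 7 and 6 of 36. Exchanges of 13 and 14 were 0 of the member bins of the secreted proteins and 419 of 431 in the olfactory and vomeronasal receptors. They were 76 of 92 in the developmental regulators, of which Pax3 and Pax2, transcription factors of the embryo, held 44 and 20 bins from 13 to 14. State 13 covered 256 and 326 bins of Pax3 against 389 to 426 in the 7, and 293 and 282 bins of Pax2 against 339 to 392. The counts of Pax3 and Pax2 include member bins, so the order of the strains is no test. No test was made between lists.

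Hairpins of 8 of 919 autosomal microRNA genes touched a member bin (0.871%), near the 0.935% of all autosomal bins that were members. Mir704 lay wholly in bins that went from state 4 to state 14, and Mir3104 wholly in bins from 14 to 4. Mir147, Mir6401 and Mir153 each had 1 bin from 13 to 14.

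Outside member bins the strains of the pair were compared with the 7. Cohen's kappa, the agreement of states beyond that given by their frequencies, was 0.513 between CAST/EiJ and PWK/PhJ outside member bins. It was 0.580 to 0.621 between CAST/EiJ and each of the 7, and 0.488 to 0.537 between PWK/PhJ and each of the 7. Leaving out member bins takes away bins where the pair agrees by the rule. Over all autosomal bins the values were 0.523 for the pair, 0.565 to 0.605 for CAST/EiJ and 0.474 to 0.522 for PWK/PhJ. State 13 covered 10.7% of the bins outside members on average in the pair and 10.9% ± 1.55 in the 7 (SD, n = 7). State 9 covered 0.599% in the pair and 0.879% ± 0.357 in the 7. An exact two-sided permutation test of the pair against the 7 gave adjusted p = 0.944 for each of the 14 states (Benjamini-Hochberg), with a smallest unadjusted p of 0.333, and in no state were both strains of the pair outside the range of the 7. With 2 strains against 7 the smallest p that the 36 relabellings allow is 0.0556.

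CAST/EiJ and PWK/PhJ had the most autosomal segments of the 9 strains, 650016 and 625553, against 548884 to 613235 in the 7 (exact two-sided permutation test, p = 0.0556, the smallest possible, n = 2 and 7). A finer segmentation moves with the groups, and its part in the member bins was not tested.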

How the data were processed

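The authors' deposited files hold 1 segmentation a strain, in which column 4 is a state number from 1 to 14, a category (unit "other") and not a count or a signal. Per the file headers each is the track of 1 strain; per the submitters' processing notes the build is mm10, and FastQC 0.11.5 and MACS 1.4.2 were used. The aligner, the segmentation tool and the use of strain genomes are not given in the sources used here. mm10 is the assembly of C57BL/6J. Depth per library is unknown, so no counting interval is given. A further file that joins the strains was identical to them and was not used.

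Segments were cut into 200-bp bins and compared by the rule in the report. Genes and start windows came from RefSeq GRCm38.p6, matched by gene ID. Start windows, counted once where genes share one, matched 16437 of 20665 protein-coding genes (79.5%). Exons and introns were not used here. Differences between 2 and 7 strains were tested with an exact permutation test, adjusted over 14 states. Counts of bins in genes have no test.

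Named genes were the 20 with most member bins; the 10 with the fullest start windows; up to 15 for each exchange between states 1 to 3 and 13 or 14 at starts; list genes with at least 3 member bins; and genes at the 10 longest regions and the 2 longest of each of the 6 commonest exchanges, 141 genes in all, some of which are not reported here. The 6 longest regions without state 14, the start windows of Tprg and Nutm2 and the genes taken from gene families were added after values were seen. Members and gene lists were chosen with earlier results of these data known. Alternatives were each strain left out, merged states, single-bin regions or shifted edges dropped, 1000-bp bins, and other gene windows. Tables were made with pandas 2.3.3 in Python 3.11.15, bins with numpy 2.4.6, tests with scipy 1.17.1, and plots in matplotlib 3.10.9. Planted bins in simulated segmentations were used to test the member rule.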

Additional observations from a re-analysis of the deposited data

Results flagged for a closer look

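Among the 7 strains, 18 groups of values were checked for a strain far from the rest (Dixon's critical value 0.568), and chance flags about 1 in 20. NOD/ShiLtJ stood apart with 1.603% of bins outside members in state 9. The same check on bins of states 1 to 3 in the 141 named genes found 11. C57BL/6J stood apart with 15 bins at each of the overlapping models Gm37013, Gm38666 and Gm38667. The strain 129S1/SvImJ stood apart with 27 bins at Ugt3a2, 565 at Arhgap42 and 265 at Mgll. NOD/ShiLtJ stood apart with 49 at Cyp2a4 and A/J with 317 at Ugt1a6a. WSB/EiJ stood apart with 6 at Dpp10, DBA/2J with 6 at Plekhs1 and NZO/HlLtJ with 0 at Kcnip4.

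Outside the autosomes, the same rule found 4839 bins on chromosome X and 262 on chromosome Y. That is 0.566% and 0.0571% of their bins. All mice were female.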

How the results depend on the processing

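No paired analysis was possible because the libraries of each strain are combined in 1 segmentation and its columns carry no replicate number. With 1 of the 9 strains left out, the number of member bins ran from 130082 to 693282 (115177 with all). Without 1 of the 7 it was at most 142588, without PWK/PhJ it was 421728 and without CAST/EiJ 693282, since fewer strains then had to meet the rule. It was 31891 with states 13 and 14 merged, 56272 with edges shifted by 1 bin dropped, and 251932 when 6 of the 7 sufficed. With single-bin regions left out, 97681 bins remained. In 1000-bp bins the members covered 21.8 Mb, against 23.04 Mb.

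Exchanges of 13 and 14 were 80.4% of members without single-bin regions and 79.7% without shifted edges, against 73.7%. Of the 12 commonest exchanges, 7 fell by more than 1.5 times without single-bin regions and 10 without shifted edges, where 13 to 14 became more frequent than 14 to 13. The share within 1 kb of a start was 2.10% for all annotated genes, and 6.10% lay within 5 kb. Genes with a member bin numbered 9674 among all annotated genes, and 3245 protein-coding genes had at least 3. Kappa of the pair was 0.622 with states 13 and 14 merged, and CAST/EiJ with each of the 7 then had at least 0.647.

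With 2 against 7 strains or fewer no state could pass the threshold, so the adjusted p of the states (0.80 to 1 at the smallest) says nothing of stability. State share differences turned sign in 9 of 112 cases. With 1 of the 7 left out, the difference in percentage points lay between -0.0081 and 0.0091 (state 3), -0.099 and 0.035 (state 6), -0.00017 and 0.0066 (state 12), and -0.50 and 0.13 (state 13). Over all autosomal bins that of state 3 was 0.00055. Among the 141 named genes, the number of member bins stayed within 1.5 times in 114 without single-bin regions, in 128 for the gene body alone and in 55 when 6 of 7 strains sufficed.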
